A study of Mus musculus with 18 samples.

Results

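The BCL2 family comprises the proteins that decide whether the outer mitochondrial membrane stays intact during apoptosis. Its 10 members examined here were picked by gene symbol from the table of nascent transcription over genes, where they make up 10 of 21859 listed genes, and 8 of them also have an entry among the 32253 PROMPTs, promoter upstream transcripts made antisense to a gene from the 1 kb before its start. The cells were mouse E14 embryonic stem (ES) cells, which all carried the plant F-box protein osTIR1 at Rosa26. In 2 of the 3 lines, each a single homozygous clone (SPT16_AID_V5_Clone1 and SPT16_AID_V5_Clone2), the FACT subunit SPT16 also carried an auxin-inducible degron and a V5 tag, while the third line was Untagged. Each line was given 3-IAA (500 nM as labelled, while the methods give a higher concentration), the auxin that triggers degradation of tagged SPT16, or 0.1% EtOH as vehicle for 24 h, which makes 6 groups of 3 libraries and 18 libraries in all. Newly made RNA was labelled with 4-thiouridine for 5 min and sequenced (transient transcriptome sequencing, TT-seq), so that the values below report recent synthesis rather than the stored mRNA.

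The level used is the authors' mean of normalised read counts, baseMean, which pools the libraries of their DESeq2 fit, control and SPT16-depleted, into 1 value per gene. Which of the 18 libraries entered that fit is not given in the sources used here. It carries no replicate error, no test was run on it, and no effect of depletion can be read from it. The differences below are therefore differences between genes in a mean over separate libraries of treated and untreated cells. Whether these differences exceed the spread between libraries was not tested. Levels of different genes were compared per kb of exon, and per kb of gene span where named, taking lengths from the Gencode vM21 annotation of GRCm38. A percentile is the share of genes with a baseMean above 0 whose level per kb is at or below that of the gene named, and these comprise 20140 genes with a median of 120 per kb.

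Pro-survival proteins such as BCL2, BCL-XL (from Bcl2l1) and MCL1 hold the effectors in check by binding them, and they also bind the BH3-only proteins that would set the effectors free. The effectors BAK and BOK can form pores in the outer membrane, through which cytochrome c leaves and caspases are activated. BH3-only proteins such as BIM (from Bcl2l11), BID, BAD, BMF and BIK respond to different kinds of stress. Pluripotent cells are known for a low threshold to mitochondrial apoptosis, and MCL1 and BCL-XL are known survival factors in them.

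The sequences before the starts of 5 members are shown because the PROMPTs arise from this DNA. These members span the range of PROMPT levels described further on, from the highest to a level listed at 0. Each is the 250 bases before the RefSeq start nearest to the annotated gene start, in GRCm38.p6, printed 5′ to 3′ on the strand of the gene. Capitals mark the GC box GGGCGG and the ETS core CCGGAAG on either strand, and these motifs do not overlap each other.
Mcl1, chr3:95658471-95658720, plus strand: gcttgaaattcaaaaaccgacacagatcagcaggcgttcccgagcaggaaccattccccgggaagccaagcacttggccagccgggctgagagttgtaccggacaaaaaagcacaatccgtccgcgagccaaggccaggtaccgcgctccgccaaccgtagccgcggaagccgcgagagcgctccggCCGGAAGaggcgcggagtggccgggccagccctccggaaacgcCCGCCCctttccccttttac
Bcl2l1, chr2:152831729-152831978, minus strand: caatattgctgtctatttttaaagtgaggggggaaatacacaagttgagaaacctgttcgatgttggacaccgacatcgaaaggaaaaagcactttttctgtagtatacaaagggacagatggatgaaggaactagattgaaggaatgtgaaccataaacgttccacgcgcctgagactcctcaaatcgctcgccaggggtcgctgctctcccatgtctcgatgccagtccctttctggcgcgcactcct
Bid, chr6:120916825-120917074, minus strand: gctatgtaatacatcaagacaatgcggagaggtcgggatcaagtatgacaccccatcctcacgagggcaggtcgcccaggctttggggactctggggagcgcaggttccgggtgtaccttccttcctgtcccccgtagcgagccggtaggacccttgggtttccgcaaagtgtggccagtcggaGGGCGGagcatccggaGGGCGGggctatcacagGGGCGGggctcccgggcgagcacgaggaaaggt
Bmf, chr2:118549687-118549936, minus strand: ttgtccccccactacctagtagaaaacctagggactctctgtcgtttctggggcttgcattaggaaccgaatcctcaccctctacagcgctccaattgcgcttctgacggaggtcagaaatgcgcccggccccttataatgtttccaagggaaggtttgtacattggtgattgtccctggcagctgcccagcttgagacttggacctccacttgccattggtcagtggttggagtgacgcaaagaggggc
Bcl2, chr1:106714291-106714540, minus strand: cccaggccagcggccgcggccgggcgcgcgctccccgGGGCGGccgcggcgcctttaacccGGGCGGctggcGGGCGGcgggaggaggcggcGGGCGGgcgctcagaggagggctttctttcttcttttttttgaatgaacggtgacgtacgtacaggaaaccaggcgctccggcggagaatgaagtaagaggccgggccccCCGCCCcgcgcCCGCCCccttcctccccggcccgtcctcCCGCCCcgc
The Bcl2 sequence held 7 GC boxes, Bid held 3 and Mcl1 held 1, while the sequences of Bcl2l1 and Bmf held none. An ETS core stood in the Mcl1 sequence and in none of the other sequences printed.

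Mcl1 and Bcl2l1 had the highest levels of the members, and Bcl2 had the lowest. Mcl1 had a level of 3755 per kb of exon, at percentile 98.1, and ranked 385 of the genes with a length. MCL1 is a short-lived protein that binds BAK and BIM, and its gene is compact, with 3 exon blocks over 4389 bp at chr3:95658788-95663176 on the plus strand. Bcl2l1, whose main product is BCL-XL, reached 2577 per kb, at percentile 95.9, from a gene of 51061 bp at chr2:152780668-152831728 on the minus strand. Bcl2, the founding member of the family, had 14.8 per kb and stood at percentile 32.6, below the median gene. Its gene is the longest of the set, with 176097 bp at chr1:106538178-106714274 on the minus strand and 2 blocks of exon totalling 9157 bp.

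The level of Mcl1 was thus 254 times that of Bcl2 per kb of exon and 1.46 times that of Bcl2l1. Mcl1 made up 59.2% of the summed level of the pro-survival members, Bcl2l1 40.6% and Bcl2 0.233%. These values depend on the length used: per kb of gene span, Mcl1 was 3806 times Bcl2 and 12.6 times Bcl2l1, and the shares were 92.6%, 7.33% and 0.0243%. The Bcl2 span is shared on the same strand with the annotated genes Gm37053 and Mir3473f, so that reads in the shared stretches could be ambiguous, and no other pro-survival member has a same-strand overlap.

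**Figure D1:**
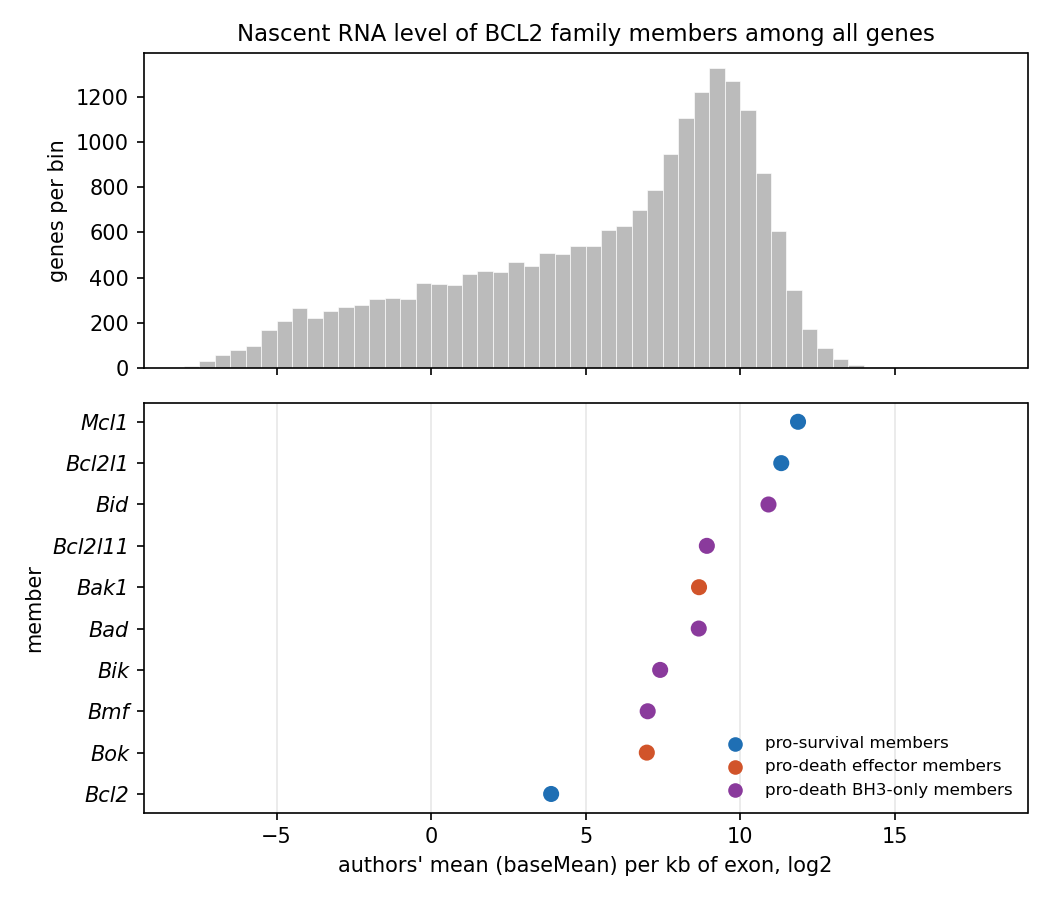
The upper panel gives the number of genes in each bin of the authors' mean (baseMean) per kb of exon on a log2 axis, and the lower panel places each member on the same axis, coloured by role. Mcl1, Bcl2l1 and Bid sit in the right shoulder of the distribution and Bcl2 sits to the left of every other member.

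Of the effectors, Bak1 was at 408 per kb and percentile 66.8, and Bok at 126 per kb and percentile 50.5. BAK is a constitutive protein of the outer membrane, encoded at chr17:27019810-27029009 on the minus strand, and BOK is an effector that is less tightly held by the pro-survival proteins, encoded at chr1:93685660-93695764 on the plus strand. Bak1 was 3.23 times Bok per kb. Bak1 lies across from Ggnbp1 on the opposite strand, and the counting was set to use strand per the methods.

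Among the BH3-only members, Bid stood apart from the others with 1936 per kb, at percentile 93.1. BID links death receptors to mitochondria once caspase-8 cleaves it, and its gene lies at chr6:120891930-120916853 on the minus strand, where it shares same-strand sequence with Gm44260 and lies across from Bcl2l13. Bcl2l11, which encodes BIM, a BH3-only protein able to bind all the main pro-survival members, followed at 486 per kb and percentile 69.8, so that Bid was 3.99 times Bcl2l11. Bad, whose protein is held inactive by growth factor signalling through phosphorylation, had 405 per kb at percentile 66.7. Bik, which encodes a BH3-only protein found largely at the endoplasmic reticulum, had 170 per kb at percentile 53.8. Bmf, whose protein is tied to the actin cytoskeleton until it is released, had 129 per kb at percentile 50.7. Per kb of exon, the 7 pro-death members therefore all lay above the median of genes above 0, although Bmf, Bok and Bik lay close to it. Bid alone made up 52.9% of their summed level. Genes whose baseMean reached 10 were also ranked by baseMean without length. There, Bok was at percentile 27.3, Bik at 29.1, Bmf at 40.9, Bak1 at 46.9 and Bad at 47.8. All of these lay below the median, while Bcl2l11 was at 73.0 and Bid at 84.0.

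The summed level of the 3 pro-survival members was 6348 per kb of exon, and that of the 7 pro-death members was 3660 per kb, a ratio of 1.73. The effectors contributed 534 per kb to the pro-death sum and the BH3-only members 3126 per kb. The median pro-survival member was at 2577 per kb and the median pro-death member at 405 per kb. The direction of the ratio rested on Mcl1, since it fell to 0.708 once Mcl1 was left out, and it came to 1.03 without Bcl2l1 and 3.68 without Bid. It also rested on which genes were summed. With 5 other pro-survival genes (Bcl2l2, Bcl2l10, Bcl2a1a, Bcl2a1b and Bcl2a1d) and 4 other pro-death genes (Bax, Bbc3, Pmaip1 and Hrk) added, the sums were 6377 and 6143 per kb and the ratio was 1.04. The added pro-survival genes contributed 29.1 per kb and the added pro-death genes 2483 per kb. Of the former, Bcl2l2 shares same-strand sequence with Gm20521 and the Bcl2a1 genes share reads with each other, so their levels are uncertain. The sum treats each gene's RNA alike and says nothing about the amounts of protein.

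Across the 15428 genes whose baseMean reached 10, the log2 baseMean rose by 0.99 for each unit of log2 exon length at a given gene span, and by 0.09 for each unit of log2 span at a given exon length. This describes the values across genes, which are not independent replicates, and the counted feature is not given in the sources used here. Dividing by gene span instead of exon length kept Mcl1 at the top, with 2925 per kb of span and percentile 99.8, and Bcl2 at the bottom, with 0.768 per kb of span and percentile 26.0. Bid, at 276 per kb of span, then passed Bcl2l1, at 231 per kb of span, and Bik moved to percentile 47.0, below the median gene.

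**Figure D2:**
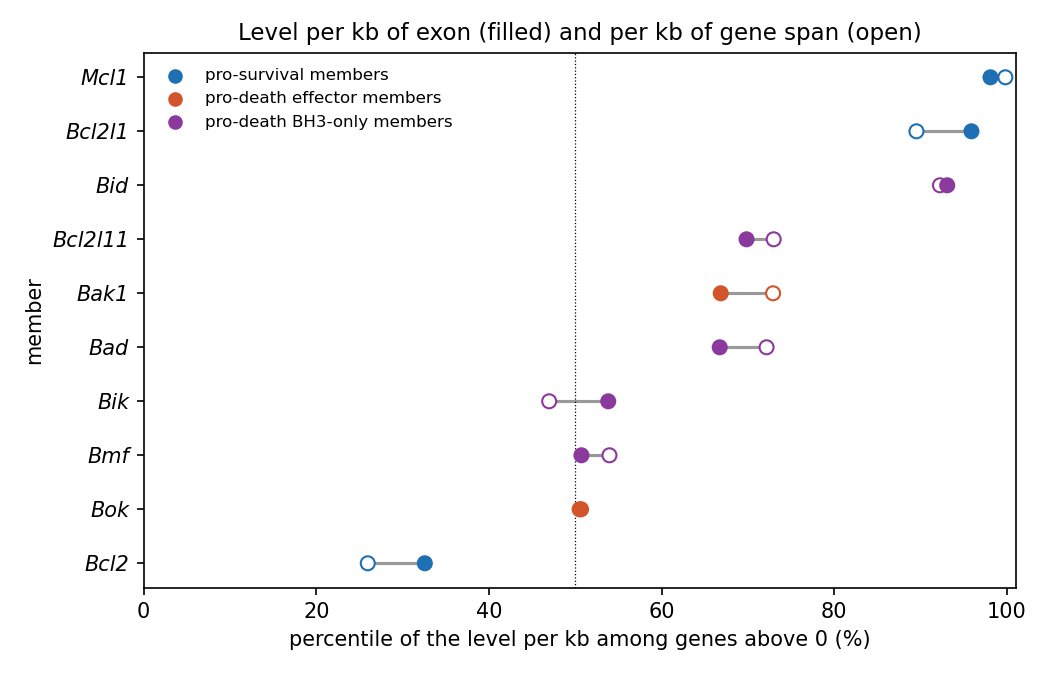
Each row is a member, with its percentile among genes above 0 for the level per kb of exon as a filled point and per kb of gene span as an open point, and the dotted line marks percentile 50. Mcl1 stays at the right edge and Bcl2 at the left on both scales, and Bik crosses the dotted line.

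The PROMPTs of the members covered a wide range. PROMPTs are short-lived antisense RNAs that are made where polymerases start in both directions at an open promoter and are then destroyed by the exosome, and labelling for minutes lets them be seen. The PROMPT of Mcl1 had a baseMean of 646 and ranked 10 of the 23257 PROMPTs above 0, whose median was 0.815. The PROMPT of Bcl2l1 followed at 13.9, at percentile 87.2 among PROMPTs. That of Bok was at 5.53, at percentile 77.1, that of Bik at 4.39, at percentile 74.2, and that of Bid at 3.88, at percentile 72.6. The PROMPT of Bcl2l11 was at 1.68, at percentile 60.8. Among only those PROMPTs whose baseMean reached 1, Bik was at percentile 44.9, Bid at 41.3 and Bcl2l11 at 16.2, all below the median, while Bcl2l1 was at 72.5 and Bok at 51.1. Bmf had a PROMPT baseMean of 0.213, and the PROMPT of Bcl2 was listed at 0.

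The order of the PROMPTs was not the order of the genes. Mcl1 and Bcl2l1 differed 1.46-fold per kb of exon and 12.6-fold per kb of gene span, while their PROMPTs, each counted in a window of up to 1 kb, were at 646 and 13.9. Bok and Bik, near the median gene, had PROMPT values above those of Bid and Bcl2l11, which had higher levels per kb of exon. As a share of the gene's own baseMean, the PROMPT came to 5.03% for Mcl1, 2.38% for Bok, 1.62% for Bik and 0.118% for Bcl2l1, against a median of 0.340% over 13699 pairs of gene and PROMPT that were both above 0. The share for Mcl1 was at percentile 80.7 of these pairs, that for Bok at 74.3 and that for Bik at 70.4. The shares for Bid, Bcl2l11 and Bmf were 0.0565%, 0.0430% and 0.0314%, all below that median. The 2 tables appear to have been normalised separately, since the most frequent low value, as a single read in 1 library would give, is 0.0216 in the gene table and 0.0266 in the PROMPT table, so the shares can be set against each other but not read as true ratios of RNA.

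A comparison with genes of like output was added after the values were seen. Among 2054 genes whose baseMean was within 2-fold of that of Mcl1, its PROMPT ranked 1, where the median PROMPT was 3.60. The Bcl2l1 PROMPT ranked 603 of 2209 in the same comparison, with a median of 3.49, and the Bid PROMPT ranked 1366 of 2928, with a median of 3.25. Bok ranked 425 of 2018 and Bik 531 of 2042, where the medians were 0.846 and 0.910. Bcl2l11 ranked 1992 of 3275 and Bmf 2117 of 2552, both below the medians of 3.17 and 1.86. For Bcl2, 262 of the 1766 genes of like output, 14.8%, also had a PROMPT listed at 0.

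**Figure D3:**
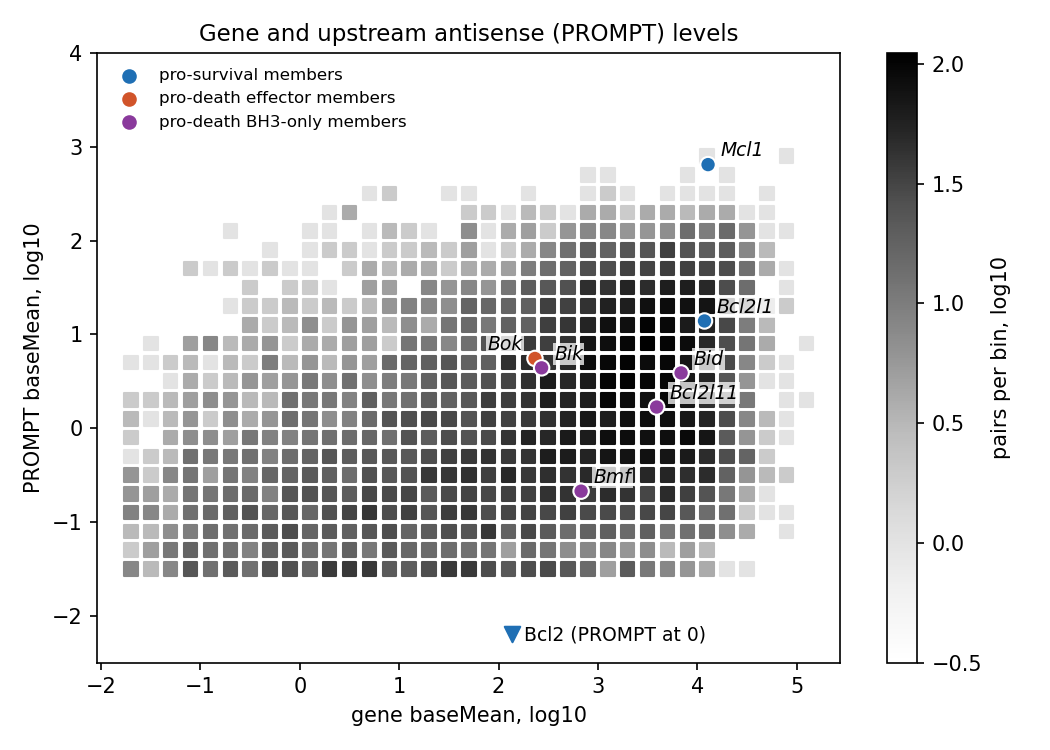
Grey squares count pairs of gene and PROMPT by gene baseMean and PROMPT baseMean, both on log10 axes, and coloured points are the members with a PROMPT above 0. The Mcl1 point lies at the top edge of the cloud, Bmf lies low, and the triangle below the cloud marks Bcl2, whose PROMPT at 0 has no place on a log axis.

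Bak1 and Bad have no entry among the PROMPTs. The authors' description of the PROMPT table limits it to places where no other annotated protein-coding transcript lay within 1 kb. In the vM21 annotation a coding transcript of Ggnbp1 overlaps the 1 kb before the Bak1 start, and one of Gpr137 overlaps the 1 kb before the Bad start. For the 8 members with an entry, no other coding transcript lay in that stretch or within 1 kb of it.

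A RefSeq promoter of 300 bases, 250 before and 50 after the start, was given for 9 members, and Bik was not matched. For members with several starts, the one nearest to the annotated gene start was used. All 9 promoters had more CpG than the median of 32851 promoters, whose ratio of observed to expected CpG was 0.384. Bcl2l1, Mcl1 and Bcl2 were the most CpG-rich of them, with ratios of 1.07, 1.02 and 1.02, while the pro-death promoters ran from 0.435 at Bak1 to 0.837 at Bad. The RefSeq start of Bak1 lies 382 bp from the annotated gene start used for its PROMPT window. Against 17231 promoters of transcribed genes, those whose baseMean reached 1, where the median ratio was 0.671, the promoter of Bak1 and that of Bmf, with a ratio of 0.567, lay below the median. The Bcl2 promoter was also the richest in G and C, at 76.0%, although its gene had the lowest level and its PROMPT was listed at 0, and the promoter of Bcl2l1 was at 52.3%.

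The GC box GGGCGG occurred on either strand in 7 of the 9 promoters, all but those of Bcl2l1 and Bak1, against 35.7% of all promoters and 54.5% of those of transcribed genes. The ETS core CCGGAAG occurred in Mcl1, Bcl2l1 and Bcl2l11, against 8.86% of all promoters and 13.5% of those of transcribed genes, and in Bcl2l1 it ends in the 50 bases after the start, which are not printed. The same holds for the GC box of Bmf. The CCAAT box occurred in Bcl2l11 and Bmf, against 37.4% of all promoters. The TATA box TATAAA, the E-box CACGTG, the AP-1 site TGACTCA and the p53 half-site had no match in the 9 promoters, against 13.6%, 7.15%, 5.20% and 8.36% of all promoters. Among promoters of transcribed genes, these shares were 9.10%, 8.86%, 4.22% and 7.22%. A match is a string of letters in this window and not a bound site, and no match says only that these letters were not found there.

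The other BCL2 family genes ran from percentile 0 to 89.4 per kb of exon, and the members from 32.6 to 98.1. The lowest of the other genes, Bcl2l2 and the Bcl2a1 genes, have uncertain levels, as described below. The next lowest, Bcl2l15, was at percentile 35.6, so the 2 spreads were not ranked. Of 15 such genes, 8 had a level per kb of exon above the median gene, the median of the list was percentile 60.2, and 4 had a baseMean under 10. Bax, the effector that moves to mitochondria on activation, was the highest, with 1453 per kb at percentile 89.4, against 408 per kb for the effector gene Bak1. It shares same-strand sequence with Gm45808. Bnip3 and Bnip3l, receptors of mitophagy, had 1293 and 981 per kb. Bbc3 and Pmaip1, the p53 targets that encode PUMA and NOXA, had 704 and 298 per kb. Bcl2l13, an outer membrane protein with a part in mitophagy, had 715 per kb, and Bcl2l12 and Bcl2l14, which are divergent family members, had 472 and 272 per kb.

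The lower genes of that list included both pro-survival and pro-death ones. Bcl2l10, a pro-survival gene known from oocytes, had 28.1 per kb, Hrk, a BH3-only gene known from neurons, had 28.0 per kb and Bcl2l15 had 22.5 per kb. Bcl2l15 shares same-strand sequence with Gm43064. Bcl2l2, which encodes the pro-survival protein BCL-W, had a baseMean of 0.192, but the annotated gene Gm20521 overlaps it on the same strand, so that its reads could have been left out as ambiguous and its level is uncertain. The Bcl2a1 genes are close copies of each other that share reads. Bcl2a1a had a baseMean of 0.355 and Bcl2a1d of 0.455, and Bcl2a1b was listed at 0. Among the PROMPTs of the list, 12 of 15 genes had an entry and 10 of these were above 0, with Bax at 68.7 and Pmaip1 at 49.4 the highest, both below Mcl1.

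**Figure D4:**
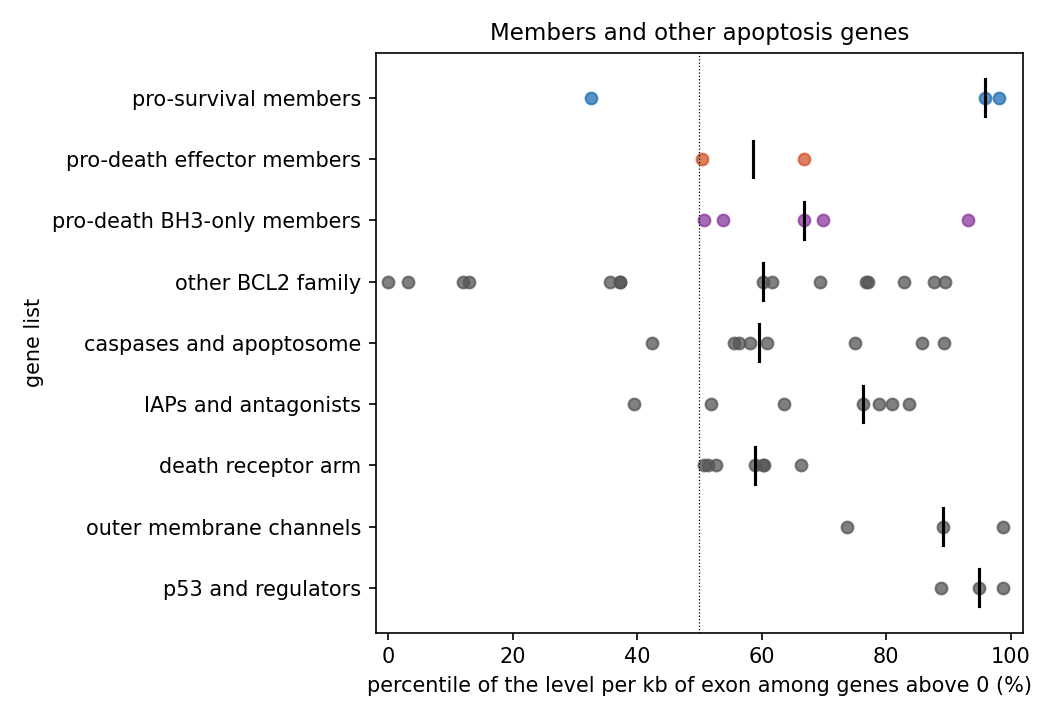
Points are genes placed by the percentile of their level per kb of exon among genes above 0, in rows by list, black bars are list medians and the dotted line marks percentile 50. Mcl1 and Bcl2l1 lie near the right edge with the p53 regulators, while the other BCL2 family reaches from 0 to 89.4.

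Downstream of the mitochondrion, 7 of the 8 caspase and apoptosome genes were above the median gene. Apaf1, the scaffold of the apoptosome, was the highest at 1436 per kb and percentile 89.2, and Casp6, an executioner caspase, was the lowest at 52.7 per kb and percentile 42.3. Of the inhibitors of apoptosis and their antagonists, 6 of 7 were above it, from Birc6 at 1026 per kb to Diablo at 37.1 per kb. Diablo encodes SMAC, which leaves mitochondria to block these inhibitors, and it shares same-strand sequence with Gm49027 and Mir7647.

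The labelled cell type was checked against marker genes. All 7 ES cell markers lay between percentiles 94.6 and 99.9, and Pou5f1, which encodes OCT4, had 3374 per kb. Per kb of exon, all 16 markers of fibroblasts or feeders, primitive endoderm, neural cells, mesoderm and blood lay below the median gene. The highest was Gata4 at percentile 49.7. Of these markers, Col1a2, Col3a1, Sox1, Neurod1 and Ptprc share same-strand sequence with other annotated genes, so that their levels are uncertain. The same holds for the ES cell markers Sox2 and Tfcp2l1. Per kb of gene span, the neural marker Sox1 was at percentile 59.6 and the mesoderm marker T at 51.7, above the median. The FACT subunit genes Supt16 and Ssrp1 had 2526 and 946 per kb. The degron acts on the SPT16 protein, so that the pooled RNA level does not check the depletion.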

How the data were processed

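TT-seq reads were aligned to mm10 with STAR and counted by strand against Gencode vM25. Per the labels HTSeq did the counting, while the methods name featureCounts. No expression filter was applied. The authors normalised the counts with DESeq2 and deposited 4 result tables, of genes, PROMPTs, enhancer RNAs and other non-coding RNAs. The deposited signal used here is baseMean, the authors' mean, over the libraries of their fit, of counts divided by size factors. The 4 other columns of each table hold the authors' fold changes, their errors and p-values for depletion, and were not used. Values per library and library totals were not analysed here, so no depth, error or test is given. The summed baseMean was 55898466 over genes and 241485 over PROMPTs.

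Gene models were taken from Gencode vM21 (GRCm38, the build of the files), in which 42 listed genes had no match, and promoter sequences from RefSeq (GRCm38.p6). Levels per kb, percentiles, sums and motif matches were computed in Python 3.11.15 with pandas 2.3.3 and numpy 2.4.6. The functions for exon length, percentile, rank and motif match were tested on simulated data. Samples were grouped by title, though no comparison between groups was made. Replicates were described as technical and clones as biological replicates in the methods. The text names every member, every other BCL2 family gene, and the highest and lowest genes of each further list of apoptosis genes. The cell type markers are named only in part. Members and lists were chosen with earlier results of these data known.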

Additional observations from a re-analysis of the deposited data

How the results depend on the processing

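The ratio of summed level per kb, pro-survival over pro-death, was 1.73 with exon length. It was 4.76 with gene span, 1.77 with no length and 6.36 with medians in place of sums. Leaving out 1 member at a time, it reversed to 0.708 without Mcl1 and came to 1.03 without Bcl2l1, 3.68 without Bid, 2.00 without Bcl2l11, 1.95 without Bak1, 1.95 without Bad, 1.80 without Bmf, 1.80 without Bok and 1.82 without Bik. Leaving out Bcl2 gave 1.73. Adding the other pro-survival and pro-death genes of the family, chosen after seeing the data, gave 1.04, with the levels of Bcl2l2 and the Bcl2a1 genes uncertain. Of 76 further values, percentiles of single members under other floors, lengths or backgrounds, 50 stayed within 10 percentile points and 26 moved by more. The largest move, of 44.6 points, was that of the Bcl2l11 PROMPT to percentile 16.2 among PROMPTs whose baseMean reached 1. For genes, floors were applied to percentiles of baseMean without length and not to those per kb. The values among genes of like output set a PROMPT percentile against a percentile of the PROMPT share, which is another quantity. The comparison with genes of like output was also chosen after seeing the data. No paired analysis was possible because each gene has 1 pooled value, and for the same reason no library could be left out. The depth behind low values, such as the PROMPT of Bmf, is unknown here.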

Other observations

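Genes that act above the mitochondrion differed in level. The regulators of p53 were high, with Mdm2, the ubiquitin ligase that degrades p53, at 4579 per kb of exon and percentile 98.8, and Trp53 itself the lowest of the 3 genes at 1387 per kb and percentile 88.7. All 7 genes of the death receptor arm lay above the median gene, from Tnfrsf1a, the receptor of TNF, at 130 per kb and percentile 50.8 to Tnfrsf10b, the mouse TRAIL receptor, at 396 per kb and percentile 66.3. Bid, the member that links this arm to mitochondria, was at percentile 93.1.

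The channels of the outer membrane ran from Vdac3 at 599 per kb to Vdac1 at 4461 per kb, and Vdac2, whose protein is known to bind BAK, had 1433 per kb at percentile 89.2. These are pooled levels with no error, and no difference between them was tested.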
